A study of Mus musculus with 8 samples.

Results

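The visual cycle genes were followed here in whole retina of rd10 mice, a model of retinitis pigmentosa, and of wild-type (WT) mice. The 10 genes were Rdh8, Rdh12, Abca4 and Rbp3, which are made in photoreceptors, Rlbp1, which is made in Muller glia as well as in pigment epithelium, and Rpe65, Lrat, Rdh5, Rgr and Stra6, which are made mainly in the retinal pigment epithelium. They were chosen by gene name among the 57010 gene identifiers of the count table, and all 10 were among the 20457 genes with enough reads to be tested. Each of the 8 libraries held the polyadenylated RNA of 1 whole retina, with 2 libraries in each of 4 groups: WT at postnatal day 15 (P15), and mice homozygous for the rd10 mutation at P15, P18 and P21. The rd10 mutation lies in Pde6b, the beta subunit of the rod phosphodiesterase, and the degeneration of rods begins around the youngest age sampled. WT retinas were those of littermates, and no WT library of P18 or P21 was analysed here, so that at those ages genotype and age cannot be told apart.

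Light turns the 11-cis-retinal of the visual pigments into all-trans-retinal, and the visual cycle turns it back. In photoreceptors, ABCA4 carries retinal conjugates out of the disc lumen and the dehydrogenases RDH8 and RDH12 reduce all-trans-retinal to retinol, which RBP3 (interphotoreceptor retinoid-binding protein) carries across the subretinal space. In the pigment epithelium, STRA6 takes up retinol from the blood, LRAT esterifies it, RPE65 isomerizes the ester to 11-cis-retinol, and RDH5 oxidizes this to 11-cis-retinal, helped by the binding protein CRALBP (the product of Rlbp1) and by the opsin RGR.

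The library totals were between 28076947 and 33724562 counts, so depth varied little. Rod transcripts were abundant in every library, with 17 rod markers summing to between 27663 and 70548 CPM (read counts scaled to a common library size by the trimmed mean of M values, TMM). Summed levels over lists of other cell types were 0.443 to 10.4 CPM for 10 lens genes, 384 to 551 for 7 of ciliary body and iris, 56.7 to 188 for 5 of red blood cells, 415 to 688 for 8 of endothelium and pericytes, and 77.5 to 402 for 11 of microglia. The ciliary body and iris sum was mostly Mab21l1 (333 and 295 CPM in the WT libraries) and Col9a1 (68.0 and 70.0). Otx1 of that list was at 0 in both. Kdr, at 193 and 264 CPM in the WT libraries, was the largest part of the endothelial sum. Such sums therefore do not measure how much of a tissue a library held. Pde6b itself was between 964 and 2334 CPM, a level that does not check a point mutation. By Xist and Y-linked transcripts, both WT libraries came from females and both rd10 P15 libraries from males, while rd10 P18 and rd10 P21 each held 1 library of either sex, so sex and genotype cannot be told apart at P15. The 2 WT libraries stood apart in pigment epithelium transcripts, with 32.6 and 96.6 CPM summed over the 5 members of that class. The 2 libraries of rd10 P18 differed in sex, as did those of rd10 P21, so each of these pairs came from different animals. For WT P15 and rd10 P15 no source says whether the 2 retinas came from different animals. The p-values therefore measure the spread between these libraries.

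The promoters of 5 members are printed because these genes cover the 3 cell types and the patterns described further on: Abca4 and Rbp3 for photoreceptors, Rlbp1 for Muller glia, and Rpe65 and Lrat for the pigment epithelium. Each is the run of 250 bases before the annotated start, 5′ to 3′ along the gene, from RefSeq on GRCm38.p6. The windows were chr3:122044210-122044459 (plus strand), chr14:33953753-33954002 (plus strand), chr7:79387028-79387277 (minus strand), chr3:159598931-159599180 (plus strand) and chr3:82903975-82904224 (minus strand). Capitals mark matches, on either strand, to TAATCC (the core bound by CRX and OTX proteins), TGCTGA (the half-site bound by NRL and other MAF proteins) or the E-boxes CATGTG and CACGTG (of the kind bound by MITF).
Abca4: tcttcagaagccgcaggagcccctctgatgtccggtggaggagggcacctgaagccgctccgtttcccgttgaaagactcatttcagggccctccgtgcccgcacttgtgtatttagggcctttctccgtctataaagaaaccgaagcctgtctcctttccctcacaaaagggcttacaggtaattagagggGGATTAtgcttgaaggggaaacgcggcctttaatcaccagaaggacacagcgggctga
Rbp3: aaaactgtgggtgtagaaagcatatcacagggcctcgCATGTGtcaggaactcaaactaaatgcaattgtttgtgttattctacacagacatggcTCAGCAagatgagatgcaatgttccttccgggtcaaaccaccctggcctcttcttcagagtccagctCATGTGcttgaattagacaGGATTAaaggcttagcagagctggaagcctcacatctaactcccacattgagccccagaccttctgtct
Rlbp1: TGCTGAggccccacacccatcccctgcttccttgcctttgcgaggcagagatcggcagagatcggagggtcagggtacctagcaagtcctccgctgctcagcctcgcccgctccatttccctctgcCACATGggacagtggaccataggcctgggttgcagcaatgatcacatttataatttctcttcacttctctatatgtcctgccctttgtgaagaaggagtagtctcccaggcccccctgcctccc
Rpe65: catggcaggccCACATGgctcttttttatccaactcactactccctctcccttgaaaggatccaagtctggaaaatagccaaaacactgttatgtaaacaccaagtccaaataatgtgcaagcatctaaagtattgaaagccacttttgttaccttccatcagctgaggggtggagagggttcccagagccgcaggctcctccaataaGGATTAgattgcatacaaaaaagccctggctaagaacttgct
Lrat: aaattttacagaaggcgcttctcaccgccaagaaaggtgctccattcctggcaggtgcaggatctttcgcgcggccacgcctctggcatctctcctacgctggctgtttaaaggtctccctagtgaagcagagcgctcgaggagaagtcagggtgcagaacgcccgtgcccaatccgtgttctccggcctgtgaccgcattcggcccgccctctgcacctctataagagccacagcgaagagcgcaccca
The 10 members had 13 such windows, because Stra6 has several annotated starts. TAATCC was found in 4 of the 13, in 4 members, against 6.25% of 32851 windows of the same length in the RefSeq table. These were Abca4 (its first base 58 bases before the start), Rbp3 (69 bases), Rpe65 (42 bases) and Rgr (167 bases), so the matches were found in genes of photoreceptors and of pigment epithelium. TGCTGA was found in 4 of the 13 windows (those of Rdh12, Rbp3, Rlbp1 and 1 of the annotated starts of Stra6), against 16.1% of windows. CATGTG was found in 3 (Rbp3, Rlbp1 and Rpe65), against 12.3%, and CACGTG in none, against 6.02%. The Lrat window held none of the 4 motifs. A match is only a run of letters, and these libraries do not measure binding.

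Per kilobase of exon, the members differed in level by far more than any of them differed between groups. In WT P15 the means in CPM per kilobase were 1512 for Rbp3, 152 for Rdh12, 145 for Abca4, 126 for Rlbp1 and 65.6 for Rdh8. Neighbours in the order from Rdh12 to Rlbp1 overlapped between libraries. The pigment epithelium genes were lower per kilobase, with means of 6.83 for Rgr, 4.90 for Rpe65, 2.92 for Rdh5, 1.52 for Stra6 and 0.998 for Lrat, and among these only Rdh5 and Stra6 were neighbours whose WT libraries did not overlap. By rd10 P21 the same quantity was 841 for Rbp3 and 0.125 for Lrat, the ends of the order in both groups.

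**Figure D1:**
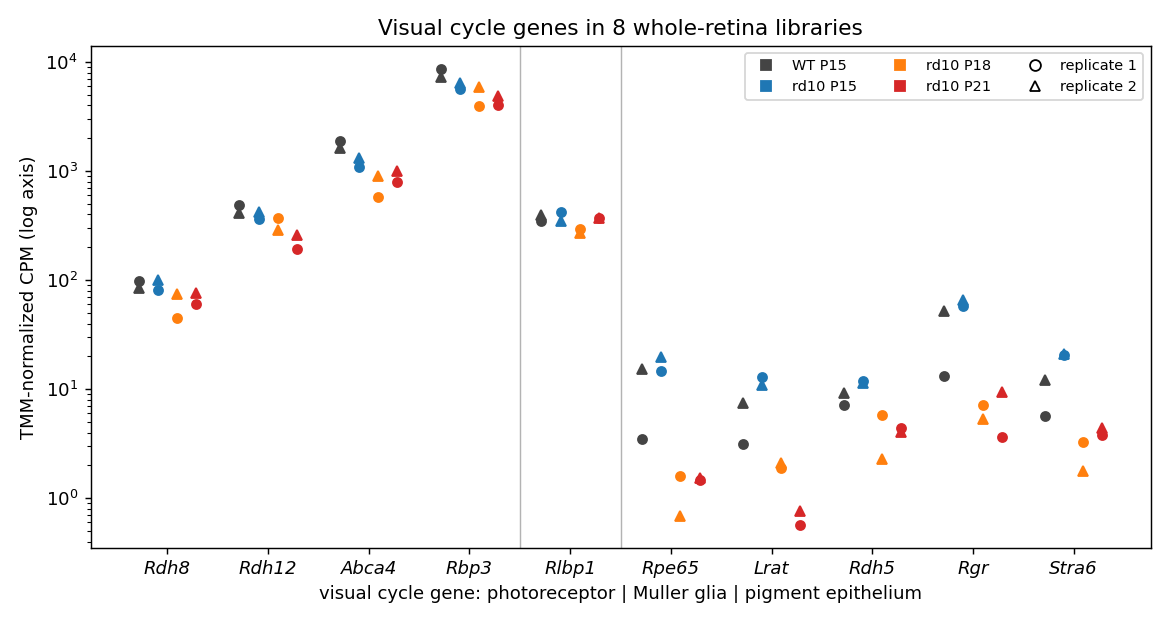
Level of each visual cycle gene in each library, as TMM-normalized CPM on a log axis, with genes of photoreceptors, Muller glia and pigment epithelium separated by vertical lines, colours for the 4 groups and marker shapes for the replicates. The photoreceptor genes spread by at most 3.23 times over the 8 libraries (Abca4), Rlbp1 by 1.57 times, and the pigment epithelium genes by 5.22 times (Rdh5) to 28.6 times (Rpe65).

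The first question was which members differed in rd10 retina at P15. A gene was called when its edgeR quasi-likelihood test gave a Benjamini-Hochberg adjusted p under 0.05 and its log2 fold change was beyond 1 in either direction. None of the 10 members was called at this age, where 0.23% of all genes were called. DESeq2 also called 0, where it called 2.11% of all genes, and 3 of the 10 members had an unadjusted edgeR p under 0.05, against 12.3% of all genes. The 5 pigment epithelium genes had log2 fold changes from 0.51 to 1.22 (median 0.92), the 4 photoreceptor genes from -0.54 to -0.02 (median -0.30), and Rlbp1 had 0.06, while the median over all genes was -0.01. Sex differs between these groups, and with a term for sex, which rests on the later rd10 libraries alone, the log2 fold changes at P15 changed sign to 0.52 for Rdh8, 0.0040 for Rbp3, -0.013 for Rlbp1 and -0.21 for Rdh5, and came to -0.05 for Abca4, 0.32 for Rpe65 and 1.38 for Rgr. Lrat, Rdh5, Rgr and Stra6 were above both WT libraries in both rd10 P15 libraries, as were 24.8% of all genes, and Abca4 and Rbp3 were below in both, as were 24.9%. For the pigment epithelium genes the size depended on the WT library: without WT P15 replicate 1 the log2 fold changes were 0.16 for Rpe65, 0.66 for Lrat, 0.34 for Rdh5, 0.24 for Rgr and 0.77 for Stra6, and without replicate 2 they were 2.31, 1.92, 0.71, 2.23 and 1.87.

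At P18, 1 of the 10 members was called against WT P15, where 1.48% of all genes were called, and it was Abca4. All 10 members were below both WT libraries in both rd10 P18 libraries, as were 22.9% of all genes, and all 10 had an unadjusted edgeR p under 0.05, as had 17.4%. The median log2 fold change was -1.80 for the pigment epithelium genes, -0.67 for the photoreceptor genes and 0.01 for all genes. At P21, 1 of the 10 was again called, where 0.386% of all genes were called, and it was Lrat. All except Rlbp1, 9 of the 10 members, were below both WT libraries in both rd10 P21 libraries, as were 24.2% of all genes. At an unadjusted edgeR p under 0.05 there were 8 of the 10, against 11.8% of all genes. The medians at P21 were -2.33 for the pigment epithelium genes and -0.90 for the photoreceptor genes, beside 0.00 for Rlbp1. The P21 values also depended on the WT library: without WT P15 replicate 2 they were -1.21 for Rpe65, -1.02 for Rgr and -0.45 for Stra6, and without replicate 1 they were -3.35, -2.99 and -1.54. These 3 comparisons share the WT P15 libraries, so they are not independent of each other. In bulk RNA, fewer cells of a type and less RNA per cell cannot be told apart.

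**Figure D2:**
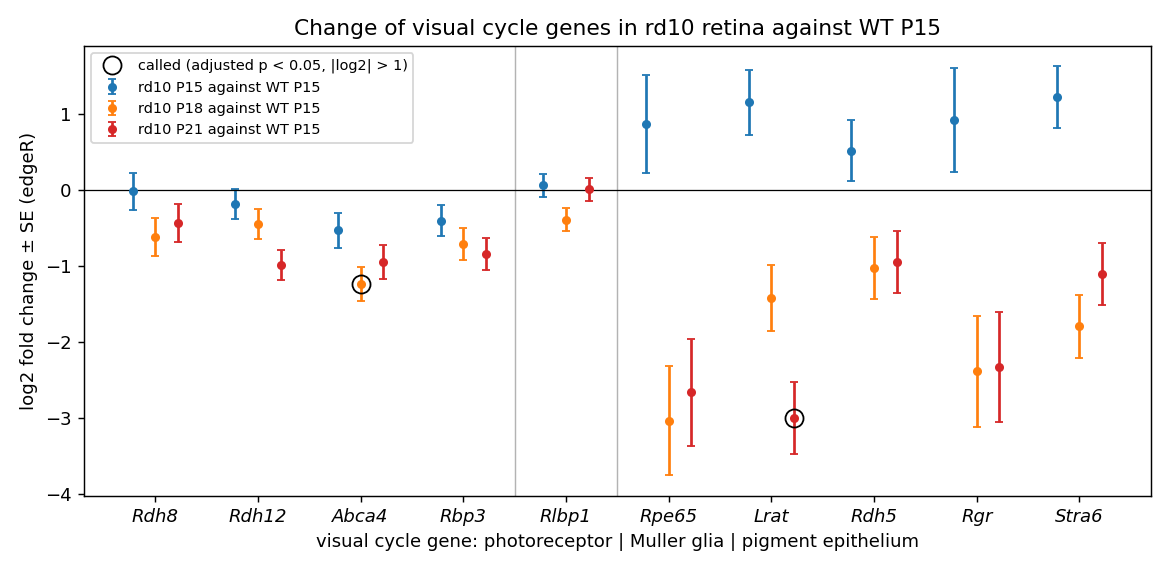
Log2 fold change (edgeR, with its SE) of each visual cycle gene in rd10 retina at P15, P18 and P21 against WT P15, with black rings around the called ones. The points of the pigment epithelium genes lie above 0 at P15 and below 0 at P18 and P21, those of the photoreceptor genes lie below 0 at each age (Rdh8 at P15 only barely, at -0.02, and at 0.02 with libraries scaled by their totals alone), and with a term for sex Rdh8, Rbp3 and Rdh5 changed sign at P15, to 0.52, 0.0040 and -0.21; only Abca4 at P18 and Lrat at P21 are ringed.

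Among the photoreceptor genes, Abca4 (ENSMUSG00000028125), the flippase of disc membranes, was the one called. Its level was 1882 and 1610 CPM in the WT libraries, and 1098 and 1312, 583 and 898, and 797 and 1009 CPM in rd10 retina of P15, P18 and P21. Every rd10 library was thus below both WT libraries, and the lowest value was that of rd10 P18 replicate 1. At P18 it was 2.36-fold lower than in WT P15 (log2 fold change -1.24 ± 0.23 SE, adjusted p = 0.039 by edgeR with Benjamini-Hochberg adjustment). At P15 and P21 the log2 fold changes were -0.54 ± 0.23 (adjusted p = 0.388) and -0.95 ± 0.23 (adjusted p = 0.134), which were not called. The call at P18 was lost without WT P15 replicate 1 (adjusted p = 0.235) or replicate 2 (0.117), rd10 P15 replicate 1 (0.073) or replicate 2 (0.075), or rd10 P18 replicate 1 (0.061), while the log2 fold change stayed between -1.58 and -0.96.

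Rbp3 (ENSMUSG00000041534), which encodes the retinoid carrier of the subretinal space, was the most abundant member. Its level was 8671 and 7345 CPM in the WT libraries, and 5712 and 6351, 3920 and 5838, and 4066 and 4841 CPM in rd10 retina of P15, P18 and P21. No rd10 library reached either WT library. The log2 fold changes against WT P15 were -0.41 ± 0.21, -0.71 ± 0.21 and -0.85 ± 0.21 at P15, P18 and P21 (adjusted p = 0.474, 0.129 and 0.137 by edgeR), and none was called.

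Rdh12 (ENSMUSG00000021123), the dehydrogenase of photoreceptor inner segments, measured 490 and 411 CPM in the WT libraries, and 363 and 425, 368 and 290, and 194 and 260 CPM in rd10 retina of P15, P18 and P21. The groups overlapped at P15, and both P21 libraries were below those of every other group. At P21 its log2 fold change was -0.99 ± 0.20 against WT P15 (adjusted p = 0.090 by edgeR), which was not called, and it was -0.19 ± 0.19 at P15 and -0.45 ± 0.20 at P18.

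Rdh8 (ENSMUSG00000053773), the dehydrogenase of the outer segments, measured 98.9 and 85.4 CPM in the WT libraries, and 81.0 and 100.5, 44.9 and 75.2, and 59.8 and 75.8 CPM in rd10 retina of P15, P18 and P21. The 2 groups at P15 overlapped, and the later libraries were all lower than those of P15. Its log2 fold changes were -0.02 ± 0.25, -0.62 ± 0.25 and -0.44 ± 0.25 at P15, P18 and P21 (adjusted p = 0.992, 0.252 and 0.546 by edgeR). The value at P15 had no stable sign, being 0.02 with libraries scaled by their totals alone and 0.52 with a term for sex.

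Rod markers were measured beside these genes. Of 17 rod markers, 0, 2 and 4 were called lower at P15, P18 and P21 against WT P15, where 0.0929%, 0.332% and 0.142% of all genes were called lower, and their median log2 fold changes were -0.43, -0.75 and -1.06. At P15, 10 of the 17 had an unadjusted p under 0.05, and DESeq2 called 1, 3 and 10 lower at the 3 ages, where it called 0.937%, 1.19% and 0.527% of all genes lower. The rod markers called were Nr2e3 and Slc24a1 at P18, and Gnat1, Cngb1, Prph2 and Guca1b at P21. The summed level of the 17 was 70548 and 57700 CPM in the WT libraries, and 43476 and 46510, 37628 and 36712, and 27663 and 35059 CPM in rd10 retina of P15, P18 and P21, and none was at 0 in any library. Of 10 cone markers, 1 (the cone arrestin gene Arr3) was called lower at P15 and at P18 and none at P21. Their median log2 fold changes were -0.62, -0.50 and -0.01. At P21, 2 were lower and 1 higher at an unadjusted edgeR p under 0.05, and DESeq2 also called none lower. The part of either cell type in the values of the 4 members was not tested.

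Each member was also set beside the rods by subtracting the median log2 CPM of the 17 rod markers in the same library and setting the WT P15 mean to 0, a description with no test. Rbp3 stayed near the rod markers, at -0.04 ± 0.05, 0.02 ± 0.47 and 0.06 ± 0.17 (mean ± SD, n = 2) at P15, P18 and P21. Rdh12 was at 0.17 ± 0.01, 0.30 ± 0.18 and -0.09 ± 0.05. Abca4 was at -0.17 ± 0.03, -0.51 ± 0.50 and -0.05 ± 0.11, so its low value beside the rods came from 1 library, rd10 P18 replicate 1, at -0.87, with -0.15 in replicate 2. Rdh8 was above the rod markers at P15 (0.34 ± 0.07) and P21 (0.46 ± 0.11), and its libraries at P18 disagreed, with -0.32 and 0.51. With each rod marker first centred on its own WT P15 mean (an alternative chosen after seeing the data), the values at P21 were higher, at 0.24 for Rbp3, 0.09 for Rdh12, 0.13 for Abca4 and 0.64 for Rdh8, which turned the sign for Rdh12 and Abca4.

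**Figure D3:**
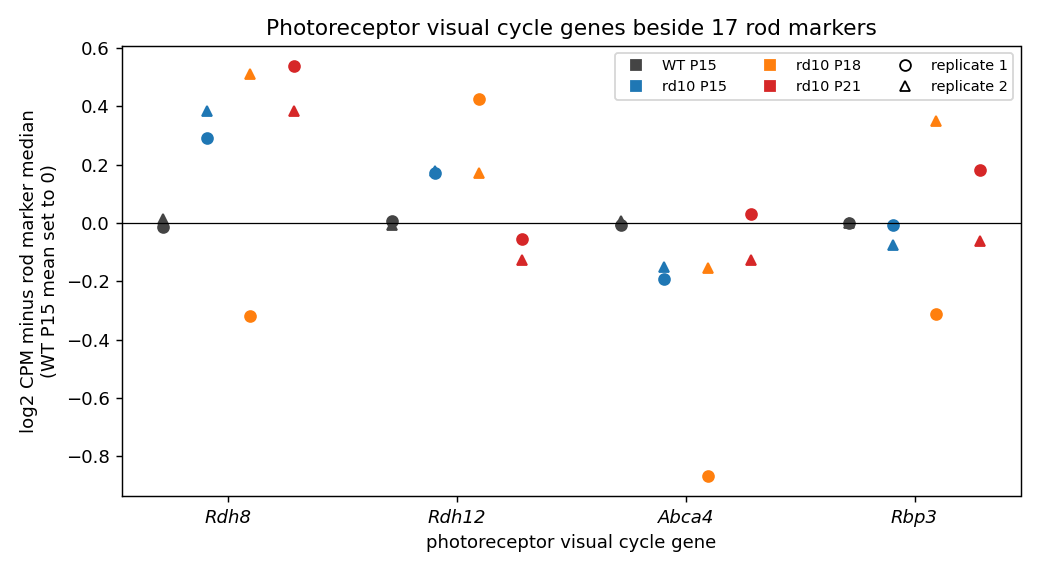
The 4 photoreceptor visual cycle genes beside 17 rod markers, as the log2 CPM of the gene minus the median log2 CPM of the rod markers in the same library, with the WT P15 mean of each gene set to 0 and 1 point per library. All points lie within 0.6 of 0 except that of rd10 P18 replicate 1 for Abca4 at -0.87, and the replicates of rd10 P18 are farther apart than those of the other groups for all 4 genes.

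Rlbp1 (ENSMUSG00000039194), which encodes the retinal-binding protein CRALBP, was the steadiest member. It measured 345 and 396 CPM in the WT libraries, and 425 and 346, 294 and 271, and 374 and 368 CPM in rd10 retina of P15, P18 and P21. Both P18 libraries were the lowest of the 8, and the other 3 groups overlapped. The log2 fold changes against WT P15 were 0.06 ± 0.15, -0.39 ± 0.15 and 0.00 ± 0.15 (adjusted p = 0.930, 0.229 and 1.0 by edgeR), and none was called. Beside the median log2 CPM of 12 Muller glia markers, Rlbp1 was at -0.30 ± 0.06 at P15, -1.30 ± 0.01 at P18 and -0.66 ± 0.14 at P21 (mean ± SD, n = 2). With each marker first centred on its own WT P15 mean it was at 0.04 ± 0.05, -0.46 ± 0.24 and -0.49 ± 0.05, so the sign at P15 and the size at P18 depended on the centring. Both scales were chosen after seeing the data. Of those markers, Crym and Vim were called higher at P18 and Crym at P21, and the median log2 fold changes of the 12 were -0.04, 0.10 and 0.53. Of 10 genes of reactive Muller glia, 9 were called higher at P18 and 6 at P21, where 1.15% and 0.244% of all genes were called higher, among them Gfap with log2 fold changes of 3.44 and 1.81.

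The 5 pigment epithelium genes had another order of groups than the photoreceptor genes. Their summed level was 32.6 and 96.6 CPM in the WT libraries, and 118 and 128, 19.7 and 12.2, and 13.9 and 20.2 CPM in rd10 retina of P15, P18 and P21. Both rd10 P15 libraries were above all others, all 4 later libraries were the lowest, and the 2 WT libraries differed from each other by more than either did from its nearest rd10 library. These levels rest on few reads, from 20 counts (Lrat) to 1853 counts (Rgr) per library.

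Rpe65 (ENSMUSG00000028174), the isomerase of the cycle, measured 3.47 and 15.5 CPM in the WT libraries, and 14.7 and 19.8, 1.61 and 0.693, and 1.46 and 1.54 CPM in rd10 retina of P15, P18 and P21. The P15 groups overlapped, and each later library was below each P15 library. The log2 fold changes against WT P15 were 0.86 ± 0.64, -3.03 ± 0.71 and -2.66 ± 0.70 (adjusted p = 0.656, 0.089 and 0.177 by edgeR), and none was called. Which WT library was kept decided the size at P18: the log2 fold change was -3.73 (adjusted p = 0.045) without WT P15 replicate 1 and -1.59 (adjusted p = 0.267) without replicate 2.

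Lrat (ENSMUSG00000028003), which stores retinol as its ester, measured 3.14 and 7.54 CPM in the WT libraries, and 12.9 and 10.8, 1.88 and 2.11, and 0.571 and 0.769 CPM in rd10 retina of P15, P18 and P21. No 2 groups overlapped, and the order ran from rd10 P15 down through WT P15 and rd10 P18 to rd10 P21. At P21 it was 7.98-fold lower than in WT P15 (log2 fold change -3.00 ± 0.47, adjusted p = 0.049 by edgeR), and it was 1.15 ± 0.43 at P15 (adjusted p = 0.321) and -1.42 ± 0.44 at P18 (adjusted p = 0.149) on the log2 scale, neither called. The call at P21 was lost without either WT P15 library (adjusted p = 0.072 and 0.132), either rd10 P15 library (0.099 and 0.097) or either rd10 P21 library (0.257 and 0.096), with log2 fold changes from -3.48 to -2.23.

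Stra6 (ENSMUSG00000032327), the retinol receptor of the basal membrane, measured 5.65 and 12.1 CPM in the WT libraries, and 20.4 and 21, 3.31 and 1.80, and 3.82 and 4.44 CPM in rd10 retina of P15, P18 and P21. The rd10 P15 libraries were the highest and each later library was below both WT libraries. The log2 fold changes against WT P15 were 1.22 ± 0.40, -1.80 ± 0.42 and -1.11 ± 0.41 (adjusted p = 0.265, 0.077 and 0.336 by edgeR). At P18 that was -2.23 without WT P15 replicate 1 and -1.14 without replicate 2.

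Rgr (ENSMUSG00000021804), a retinal-binding opsin of pigment epithelium and Muller glia, measured 13.2 and 52.2 CPM in the WT libraries, and 58.3 and 65.3, 7.18 and 5.32, and 3.65 and 9.43 CPM in rd10 retina of P15, P18 and P21. The WT libraries were apart, as for Rpe65, and the later libraries were all below them. The log2 fold changes against WT P15 were 0.92 ± 0.69, -2.39 ± 0.73 and -2.33 ± 0.73 (adjusted p = 0.666, 0.179 and 0.295 by edgeR). At P18 that was -3.05 without WT P15 replicate 1 and -1.07 without replicate 2.

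Rdh5 (ENSMUSG00000025350), the 11-cis-retinol dehydrogenase, had the smallest spread of the 5. It measured 7.17 and 9.26 CPM in the WT libraries, and 12 and 11.5, 5.75 and 2.30, and 4.42 and 4.05 CPM in rd10 retina of P15, P18 and P21. Its order of groups was that of Stra6, with log2 fold changes of 0.51 ± 0.40, -1.03 ± 0.41 and -0.95 ± 0.41 (adjusted p = 0.671, 0.250 and 0.413 by edgeR). Rdh5 shares 720 exon bases with Bloc1s1 on the same strand, so its reads are uncertain, and Bloc1s1 was between 16.6 and 31.8 CPM in the 8 libraries.

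Within rd10 retina, the question was how the members differed with age. Both rd10 P15 libraries came from males and each later group held 1 library of either sex, so sex differs between these ages as well. With a term for sex, edgeR called 275 genes at P18 and 156 at P21 against rd10 P15, beside 121 and 82 without it. From P15 to P18, 1 of the 10 was called, Stra6, where 0.591% of all genes were called. Stra6 was 8.08-fold lower at P18 (log2 fold change -3.01 ± 0.43, adjusted p = 0.034 by edgeR), and the call was lost without rd10 P15 replicate 1 (adjusted p = 0.135) or replicate 2 (0.152). From P15 to P21, 1 of the 10 was called, Lrat, where 0.401% of all genes were called. Lrat was 17.7-fold lower at P21 (log2 fold change -4.15 ± 0.49, adjusted p = 0.019 by edgeR), and the call was lost without rd10 P15 replicate 1 (adjusted p = 0.092) or replicate 2 (0.070), or rd10 P21 replicate 1 (0.116) or replicate 2 (0.0502).

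Both libraries were below both rd10 P15 libraries in 8 of the 10 members at P18, where 20.4% of all genes were, and in 9 of the 10 at P21, where 25.5% were. The other 4 pigment epithelium genes had log2 fold changes at P18 against rd10 P15 of -3.90 ± 0.74 for Rpe65, -3.30 ± 0.75 for Rgr, -2.57 ± 0.45 for Lrat and -1.54 ± 0.41 for Rdh5 (adjusted p = 0.081, 0.172, 0.055 and 0.179 by edgeR), and none of these was called. DESeq2 called all 5 pigment epithelium genes lower at P18 and at P21 against rd10 P15, and none of the other members, where it called 0.646% and 0.568% of all genes lower. Of the photoreceptor genes and Rlbp1, the log2 fold changes against rd10 P15 were between -0.70 (Abca4) and -0.26 (Rdh12) at P18 and between -0.80 (Rdh12) and -0.05 (Rlbp1) at P21. Between P18 and P21, edgeR called none of the 10 members, where 0.0196% of all genes were called, and DESeq2 also called 0, against 0.582% of all genes. At an unadjusted edgeR p under 0.05 there were 3 (Rdh12, Rlbp1 and Lrat), against 10.8% of all genes. Rdh12 and Lrat were below in both P21 libraries, as were 22% of all genes, and Rlbp1 and Stra6 above in both, as were 21%.

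Markers of pigment epithelium were measured beside these genes. Of 16 such markers, 13 were above both WT libraries in both rd10 P15 libraries, as were 24.8% of all genes. In 10, both rd10 P15 libraries were above all 4 later ones, a share not worked out over all genes. None of the 16 was called lower by edgeR in any comparison. Against rd10 P15, 11 markers at P18 and 7 at P21 were lower at an unadjusted edgeR p under 0.05. The share of all genes lower at such a p in these comparisons is not reported here. DESeq2 called 9 and 6 markers lower against rd10 P15, where it called 0.646% and 0.568% of all genes lower. Against WT P15, 2 at P18 and 1 at P21 were lower at an unadjusted edgeR p under 0.05. Over all genes, 17.4% and 11.8% had such a p in either direction. DESeq2 called 0 markers lower against WT P15, where it called 1.19% and 0.527% of all genes lower at P18 and P21. Krt18, a keratin gene not limited to pigment epithelium, was called higher by edgeR at P18 against WT P15. The median log2 fold change of the 16 was 1.23, -1.19 and -0.13 at P15, P18 and P21 against WT P15. Their summed level was 341 and 420 CPM in the WT libraries, and 639 and 515, 381 and 436, and 497 and 525 CPM in rd10 retina of P15, P18 and P21, mostly from Trpm1, which ON bipolar cells also make. Without Trpm1, Krt18 and Mitf (an alternative chosen after seeing the data) the sum was 16.9 and 65.4 CPM in the WT libraries, and 137 and 143, 22.4 and 18.1, and 26.7 and 29.7 CPM in rd10 retina of P15, P18 and P21. That sum was highest in both rd10 P15 libraries, as for the visual cycle genes, but WT P15 replicate 1 was the lowest of the 8 and below all 4 later libraries, where it stood above them for the visual cycle genes.

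Most of the 16 markers were lower in WT P15 replicate 1 than in replicate 2. Dct and Tyr, chosen after their values were seen, are given as examples. Dct, an enzyme of melanin synthesis, measured 3.14 and 20.5 CPM in the WT libraries, and 58.1 and 58.3, 8.70 and 7.62, and 13.5 and 7.65 CPM in rd10 retina of P15, P18 and P21. Tyr, the first enzyme of that pathway, measured 0.480 and 4.53 CPM, then 4.74 and 7.40, 1.07 and 0.378, and 0.770 and 0.874 in the same groups. For Dct the value of WT P15 replicate 1 was below all 4 later libraries and for Tyr below 3 of the 4, while replicate 2 was above them for both genes. Beside the later libraries other markers stood differently: for Best1, Kcnj13, Slc16a8, Slc6a20a and Ermn, WT P15 replicate 1 was above 3 of the 4. Only Best1, Mitf and Krt18 were higher in WT P15 replicate 1 than in replicate 2. Counts of 0 were found in 2 of the 16 markers in WT P15 replicate 1 (Slc45a2 and Oca2), in 1 and 4 markers in the rd10 P18 libraries, and in 2 in rd10 P21 replicate 1. How much pigment epithelium stayed on a dissected retina was not recorded in the sources used here, and its part in these results was not tested.

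**Figure D4:**
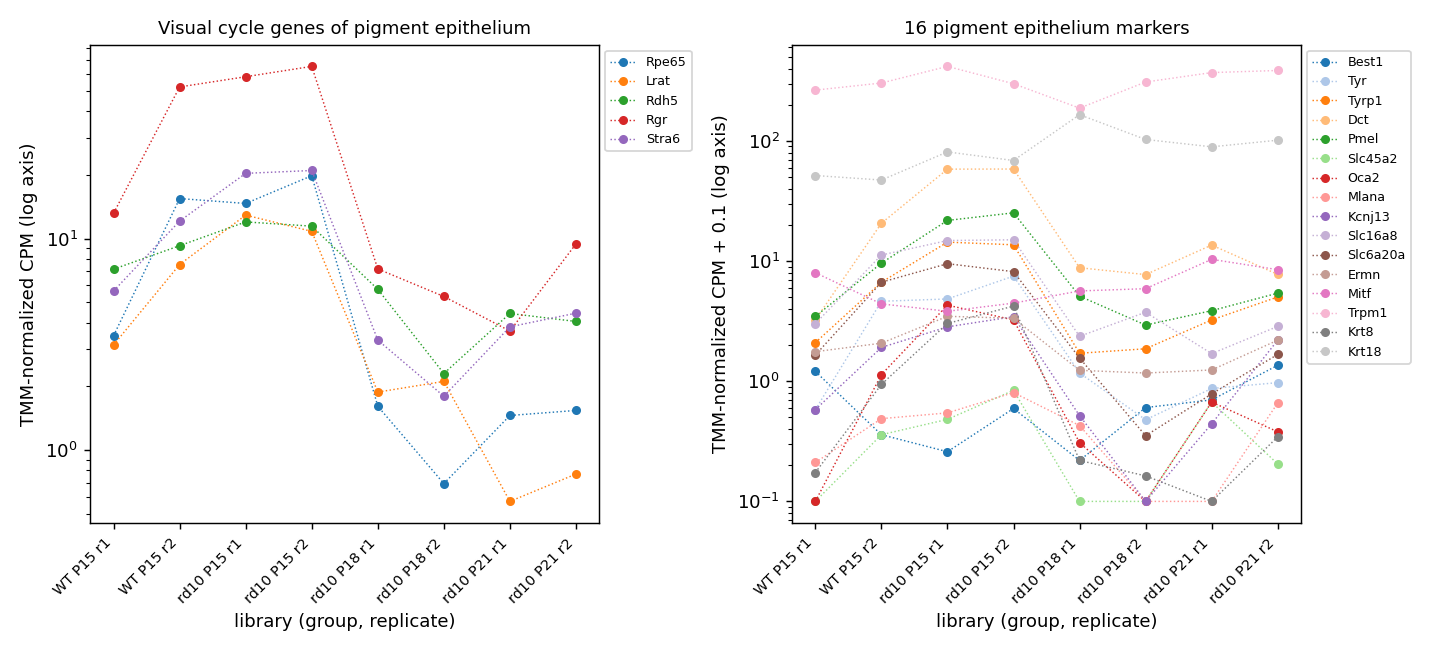
Left, the 5 visual cycle genes of pigment epithelium in each of the 8 libraries, as TMM-normalized CPM on a log axis; right, 16 pigment epithelium markers in the same libraries, with 0.1 CPM added for the log axis. Dotted lines join the points of 1 gene and mark no time course. The visual cycle genes and 10 of the 16 markers are higher in both rd10 P15 libraries than in the 4 later ones, and Trpm1 and Krt18 run above the rest with another course. The share of all genes with that order was not worked out.

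Set beside the median log2 CPM of the 16 markers in the same library, with the WT P15 mean at 0 and no test, the 5 genes did not all keep level. Rpe65 was at -1.33 ± 0.28 and -1.35 ± 0.73 (mean ± SD, n = 2) at P18 and P21, and at -1.59 and -1.77 against the 13 markers left without Trpm1, Krt18 and Mitf. Lrat was at 0.13 ± 0.65 at P18 and -1.87 ± 0.51 at P21, so its lowest value beside the markers was at P21. Rgr was at -0.68 ± 0.23 and -1.25 ± 0.17. Rdh5, at 0.25 ± 0.39 and -0.04 ± 0.87, and Stra6, at -0.34 ± 0.08 and -0.10 ± 0.63, were nearer the markers. With each marker first centred on its own WT P15 mean (an alternative chosen after seeing the data), every one of the 5 was lower beside the markers, at P18 and P21 at -1.91 and -2.20 for Rpe65, -0.45 and -2.71 for Lrat, -1.26 and -2.10 for Rgr, -0.92 and -0.95 for Stra6 and -0.34 and -0.89 for Rdh5. Against the 13 markers, Stra6 was at -0.61 and -0.51, Lrat at -0.14 and -2.28, Rgr at -0.95 and -1.67 and Rdh5 at -0.02 and -0.45. The sign for Rdh5 and Lrat at P18 thus turned with the choice of markers or centring. At P15, beside the 16 markers, Rpe65 was at 0.31, Lrat at 0.37, Rgr at 0.33, Stra6 at 0.42 and Rdh5 at -0.38. With each marker centred these became -0.34, -0.28, -0.32, -0.24 and -1.03, so the sign at P15 turned for all except Rdh5. The WT P15 replicates were themselves as far apart as 0.53 and -0.53 beside the median of the 16 markers (Rdh5).

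Other genes of retinoid handling, a list of 37 of which 36 were found by name and 30 had enough reads, were followed as well. The list had a median log2 fold change of 0.06, 0.06 and 0.10 against WT P15 at the 3 ages, beside -0.01, 0.01 and 0.00 over all genes. At P15 and P21, 0 of the 30 were called by edgeR, against 0.23% and 0.386% of all genes. At each of these ages 6 had an unadjusted edgeR p under 0.05, against 12.3% and 11.8% of all genes. DESeq2 called 2 at each age, all higher, against 2.11% and 2.74% of all genes. At P18, 2 of the 30 were called by edgeR, both higher, and 28 were not, where 1.15% of all genes were called higher. DESeq2 called 3 at P18, against 4.7% of all genes.

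Crabp1, which encodes a binding protein of retinoic acid, was 1 of the 2 called genes. It measured 6.83 and 11.5 CPM in the WT libraries, and 30.3 and 25.3, 32.5 and 22.0, and 14.2 and 11.7 CPM in rd10 retina of P15, P18 and P21. Against WT P15 its log2 fold change was 1.57 ± 0.30 at P18 (adjusted p = 0.043 by edgeR). At P15 it was 1.60 (adjusted p = 0.070 by edgeR), which was not called. Ttr, the plasma carrier that pigment epithelium also makes (chosen after its values were seen), measured 16.2 and 65.4 CPM in the WT libraries, and 99.3 and 124, 18.8 and 9.92, and 16 and 15.7 CPM in rd10 retina of P15, P18 and P21. The rd10 P15 libraries were the highest, and WT P15 replicate 1 was between the 2 rd10 P18 libraries. Its log2 fold change at P18 against WT P15 was -1.50 (adjusted p = 0.311 by edgeR) and it was not called.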

How the data were processed

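RNA-seq of whole mouse retina gave a table of read counts per Ensembl gene for 8 libraries, deposited by the authors without normalization. The authors' notes name HISAT2 as a tool without its version or role. The counting program, genome build and annotation were not given in the sources used here. Columns were matched to libraries by the labels' own names, and totals were 28076947 to 33724562 counts. The members and every marker list were chosen with earlier results of these data known.

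Identifiers were named and exon lengths taken from GENCODE M21 (GRCm38), which named 52081 of 57010. Counts were fitted in edgeR 4.0.16 (R 4.3.3) with a robust quasi-likelihood model of group over all 8 libraries. Libraries were scaled by the trimmed mean of M values (TMM) and genes filtered with filterByExpr at its defaults (minimum count 10, minimum total 15), leaving 20457. P-values were adjusted by Benjamini-Hochberg over those genes. A gene was called where the adjusted p was below 0.05 and the log2 fold change beyond 1 in either direction. Values set beside markers used log2 CPM with a prior count of 2. An exact permutation test of 2 libraries against 2 cannot give a two-sided p below 0.333, so none is printed. The scripts were tested on simulated counts.

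All 10 members are named in the comparisons with WT P15. Within rd10 the members named are those called or not overlapping, plus the other pigment epithelium genes. Of the other lists, called genes are named, and any gene chosen after its values were seen is said to be so. A few genes that this rule names are not reported here. Alternatives were DESeq2 1.42.0, other scalings, no filter, only the 4 libraries compared, a replicate block, a term for sex, and each library left out in turn. Promoters were read from a RefSeq table. Same-numbered libraries did not deviate together, so the numbers were not used as pairs.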

Additional observations from a re-analysis of the deposited data

Results flagged for a closer look

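Of the genes of the cycle, 4 of the pigment epithelium stood above WT P15 in both rd10 libraries of P15 and below it in both libraries of P18 and of P21. These were Lrat, Rdh5, Rgr and Stra6. Over all genes, 24.8% stood above WT P15 in both libraries at P15, 22.9% below at P18 and 24.2% below at P21. The share of all genes with the whole pattern was not worked out. The log2 fold changes against rd10 P15 at P18 and P21 were -2.57 and -4.15 for Lrat, -3.01 and -2.32 for Stra6, -3.30 and -3.24 for Rgr, and -1.54 and -1.47 for Rdh5. The choice of genes by these same libraries fixes the direction of these falls, so they are a description, and the difference between ages was not tested apart from that choice. Rpe65 was not among them because 1 rd10 P15 library, at 14.7 CPM, was below the WT library at 15.5 CPM, and its values were -3.90 and -3.52.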

How the results depend on the processing

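Each of 51 fold changes was recomputed under 15 alternatives, 765 values in all. Of these, 690 kept their direction and their side of the threshold, 22 lost a call, 41 gained one, and 12, from 5 fold changes close to 0 or from the term for sex, changed sign. With libraries scaled by total counts alone, the median of all genes moved to 0.13 at P18 and 0.11 at P21 on the log2 scale. DESeq2 called more members than edgeR: against WT P15 it called 4 at P18 and 2 at P21 (edgeR 1 and 1), and against rd10 P15 it called 5 at P18 and 5 at P21 (edgeR 1 and 1). Over all genes at P18 against WT P15 it called 954 against 303. Without a filter on low counts, 2 members were called at P18 against WT P15, and 2 at P18 and 2 at P21 against rd10 P15. With only the 4 libraries compared, against WT P15 there were 0 calls at P18 and 0 at P21, and 4 at P21 against rd10 P15, while the 1 call at P18 against rd10 P15 was Rgr in place of Stra6. With a term for sex, 0 were called at P21 against WT P15, and at P15 the log2 fold changes became 0.52 for Rdh8, 0.0040 for Rbp3, -0.013 for Rlbp1 and -0.21 for Rdh5. That for Rlbp1 at P21 became -0.032, and with library size alone that for Rdh8 at P15 was 0.023. The cause of these differences was not tested.

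Leaving out 1 library at a time gave, against WT P15, 0 to 3 calls at P18 and 0 to 1 at P21, and, against rd10 P15, 0 to 4 at P18 and 0 to 4 at P21. A group left with 1 library was assumed to vary like the others. The log2 fold change at P15 ranged from -0.19 to 0.13 for Rdh8 and from -0.10 to 0.20 for Rlbp1, and at P21 from -0.080 to 0.10 for Rlbp1. Without rd10 P18 replicate 2, Rdh8, Abca4 and Rbp3 were called at P18 against WT P15.

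The replicate numbers did not pair the libraries: correlations of their deviations from group means ran from -0.02 to 0.06. With a replicate block, 0 members were called at P21 against WT P15 (Lrat -2.94, adjusted p = 0.070 by edgeR), and the other counts of members called did not change. The shallow counts of the pigment epithelium genes, down to 20 per library, limit how finely their changes can be read.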

Other observations

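The genes whose log2 CPM ran most like a member over the 8 libraries were looked for among 16207 genes with a mean of at least 1 CPM. The points share library and group, so the Pearson correlations are given as a description with no test. For Rpe65 the nearest were Stra6 (r = 0.976), the thyroid hormone and organic anion transporter gene Slco1c1 (0.971), an identifier without a name in the annotation used (0.968), Rgr (0.966) and Lhfpl4 (0.965). Both Stra6 and Rgr are members of the cycle. For Rlbp1, 4 of the nearest 5 were Clvs1 (0.963), which encodes a protein with the same kind of lipid-binding domain, Eftud2 (0.930), Gm26666 (0.907) and Sfxn5 (0.904). For Rbp3, 4 of the nearest 5 were Arhgef26 (0.982), Peli3 (0.978), the rod exchanger gene Slc24a1 (0.978) and 6030458C11Rik (0.974).

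Among dehydrogenases outside the 10, Rdh10, which oxidizes retinol and is made in pigment epithelium and Muller glia, measured 52.7 and 65.6 CPM in the WT libraries, and 95.5 and 114, 113 and 85.2, and 79.6 and 72.1 CPM in rd10 retina of P15, P18 and P21. All 6 rd10 libraries were above both WT libraries, and its log2 fold changes of 0.83, 0.74 and 0.36 were not called (adjusted p = 0.115, 0.093 and 0.506 by edgeR). Rdh10 was chosen after its values were seen.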
